A study of Rattus norvegicus with 24 samples.

Results

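The genes of oxidative phosphorylation, which encode the respiratory chain and the ATP synthase of mitochondria, were followed in rat spinal dorsal horn after nerve injury at 2 ages. Members were the genes with a single platform symbol that starts with Nduf, Uqcr or Atp5, or with Cox4, Cox5, Cox6, Cox7 or Cox8, or that is Sdha, Sdhb, Sdhc, Sdhd or Cyc1. Membership was decided by the symbol and not by measured values, and 85 of the 10411 genes on the array fitted. Each gene was represented by its probe set with the highest mean. Of the 85 genes, 78 passed the filter on dim probe sets and were tested, among 7006 genes tested in all. The other 7 (Cox4i2, Cox6a2, Cox6b2, Cox6c-ps1, Cox7a1, Cox8b and Ndufb8) lay above the filter level on at most 4 of the 24 arrays. Cycs, the gene of cytochrome c, had no probe set with a single symbol and is not described.

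The respiratory chain passes electrons from NADH through complex I, and from succinate through complex II, to ubiquinone, and then through complex III, cytochrome c and complex IV to oxygen. Complexes I, III and IV pump protons across the inner mitochondrial membrane, and the ATP synthase, also called complex V, uses the returning protons to make ATP. In the spinal cord this pathway is known to supply most of the ATP used for firing and synaptic transmission, and its rate of use differs between neurons and glia. Most subunits are nuclear genes and could be measured here, whereas the subunits encoded by the mitochondrial genome are not covered by the rule.

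The arrays measured RNA from the dorsal horn on the operated side of Sprague-Dawley rats. In spared nerve injury (SNI), of the sciatic nerve's branches the common peroneal and the tibial were tied and cut and the sural was spared, and in sham surgery the nerve was only exposed, both under isoflurane. The 4 groups were adult sham, adult SNI, neonate sham and neonate SNI, each with 6 arrays described as biologically independent. Adults were 8 to 12 weeks old and neonates are labelled postnatal day 10, and it is not stated whether they were that old at surgery or when tissue was taken. SNI arrays are labelled 7 days after injury, while the sham labels give no time. Pups stayed with their mothers after surgery. The labels do not say whether 1 animal or several gave the RNA of an array. The array medians over all probe sets ran from 5.57 to 5.67 log2, and every pair of arrays correlated at 0.984 or more. Precision is limited by the 6 arrays in a group, and the p-values measure the spread between these arrays. Of the neuronal markers 7 of 7 measured were above the filter level, which cannot tell the dorsal horn from other nervous tissue. Of 4 markers of motor neurons, which lie ventral to it, 3 were also above that level.

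The 78 tested genes covered every complex. They were 33 subunits of complex I, 4 of complex II, 8 of complex III, 10 of complex IV and 15 of the ATP synthase, 5 assembly factors of complex I (Ndufaf3, Ndufaf4, Ndufaf5, Ndufaf7 and Ndufaf8) and 3 others. The 3 others were Atp5if1, an inhibitor of the ATP synthase, Cox7a2l, which joins complexes III and IV into larger assemblies, and Ndufa4l2, a relative of Ndufa4. Ndufa4 carries a complex I name but is now known as a subunit of complex IV and was counted there.

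To show what lies before the genes on which the age results turn, 3 promoters are given: Uqcrfs1 and Atp5f1a, lower in adults in both age comparisons, and Ndufaf8, the single member called higher in adults in either of them. They are the 250 bases before the transcription start in RefSeq's GRCr8 assembly, at chr17:34186352-34186601, chr18:73567287-73567536 and chr10:105879658-105879907, all on the plus strand. Capitals mark a match to 1 of 4 motifs of factors known for mitochondrial genes. The motifs were GCATGCG for NRF1, then CCGGAAG for ETS factors such as the GA-binding protein, then ATGGCGG for YY1, and finally AAGGTCA for the estrogen-related receptors. Both strands were searched, and the motifs did not overlap each other in these 3 stretches.
Uqcrfs1: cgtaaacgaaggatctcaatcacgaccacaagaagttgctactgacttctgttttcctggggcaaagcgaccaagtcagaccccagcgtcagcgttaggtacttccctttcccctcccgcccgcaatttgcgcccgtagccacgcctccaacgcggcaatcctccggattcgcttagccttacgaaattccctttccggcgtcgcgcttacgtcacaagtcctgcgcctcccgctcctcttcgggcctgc
Atp5f1a: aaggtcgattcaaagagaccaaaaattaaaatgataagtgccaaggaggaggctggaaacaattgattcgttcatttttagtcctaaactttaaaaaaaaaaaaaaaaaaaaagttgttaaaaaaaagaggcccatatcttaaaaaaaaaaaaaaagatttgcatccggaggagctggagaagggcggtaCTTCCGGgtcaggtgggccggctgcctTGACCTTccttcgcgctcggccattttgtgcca
Ndufaf8: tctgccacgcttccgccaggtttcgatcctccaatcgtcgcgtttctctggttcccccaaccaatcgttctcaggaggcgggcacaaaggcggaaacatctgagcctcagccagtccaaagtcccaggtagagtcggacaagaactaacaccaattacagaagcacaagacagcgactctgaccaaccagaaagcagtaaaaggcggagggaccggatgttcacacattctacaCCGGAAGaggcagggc

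Atp5f1a held an ETS match that began at position -60 from the start and an estrogen-related receptor match at -33, both on the reverse strand. Ndufaf8 held an ETS match at -16, and a YY1 match at position 5, just past the printed stretch. No match was present in the window of Uqcrfs1, which says only that these letters are not there. Promoters were available for 76 of the 85 members and for 71 of the 78 tested. In a window from 250 bases before to 50 after the start, 53.5% of those 71 held at least 1 of the 4 motifs, against 19.9% of all 27457 promoters. By motif the shares were 29.6% against 9.22% for ETS, 22.5% against 5.22% for YY1, 15.5% against 3.54% for NRF1 and 15.5% against 4.37% for the estrogen-related receptors. The 27457 promoters include those of genes that were not tested here, and the share among the tested genes was not computed. A match is a description of letters and not a binding site.

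The first comparison asked whether the nerve injury changed these genes in adults. None of the 78 was called (limma, Benjamini-Hochberg adjusted p under 0.05), against 2.01% of all genes tested. The differences were small and nearly all negative: 76 of 78 lay below 0, beside 60.7% of all genes tested. The median difference was -0.11 log2, beside -0.03 over all genes tested, and single genes ran from -0.31 for Ndufs8 to 0.08 for Cox5a. No gene had adult SNI arrays that lay all above or all below the sham arrays, against 1.88% of all genes. The 78 genes were measured on the same arrays and are not independent of each other. In bulk tissue, fewer cells of a type and less RNA per cell cannot be told apart.

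**Figure D1:**
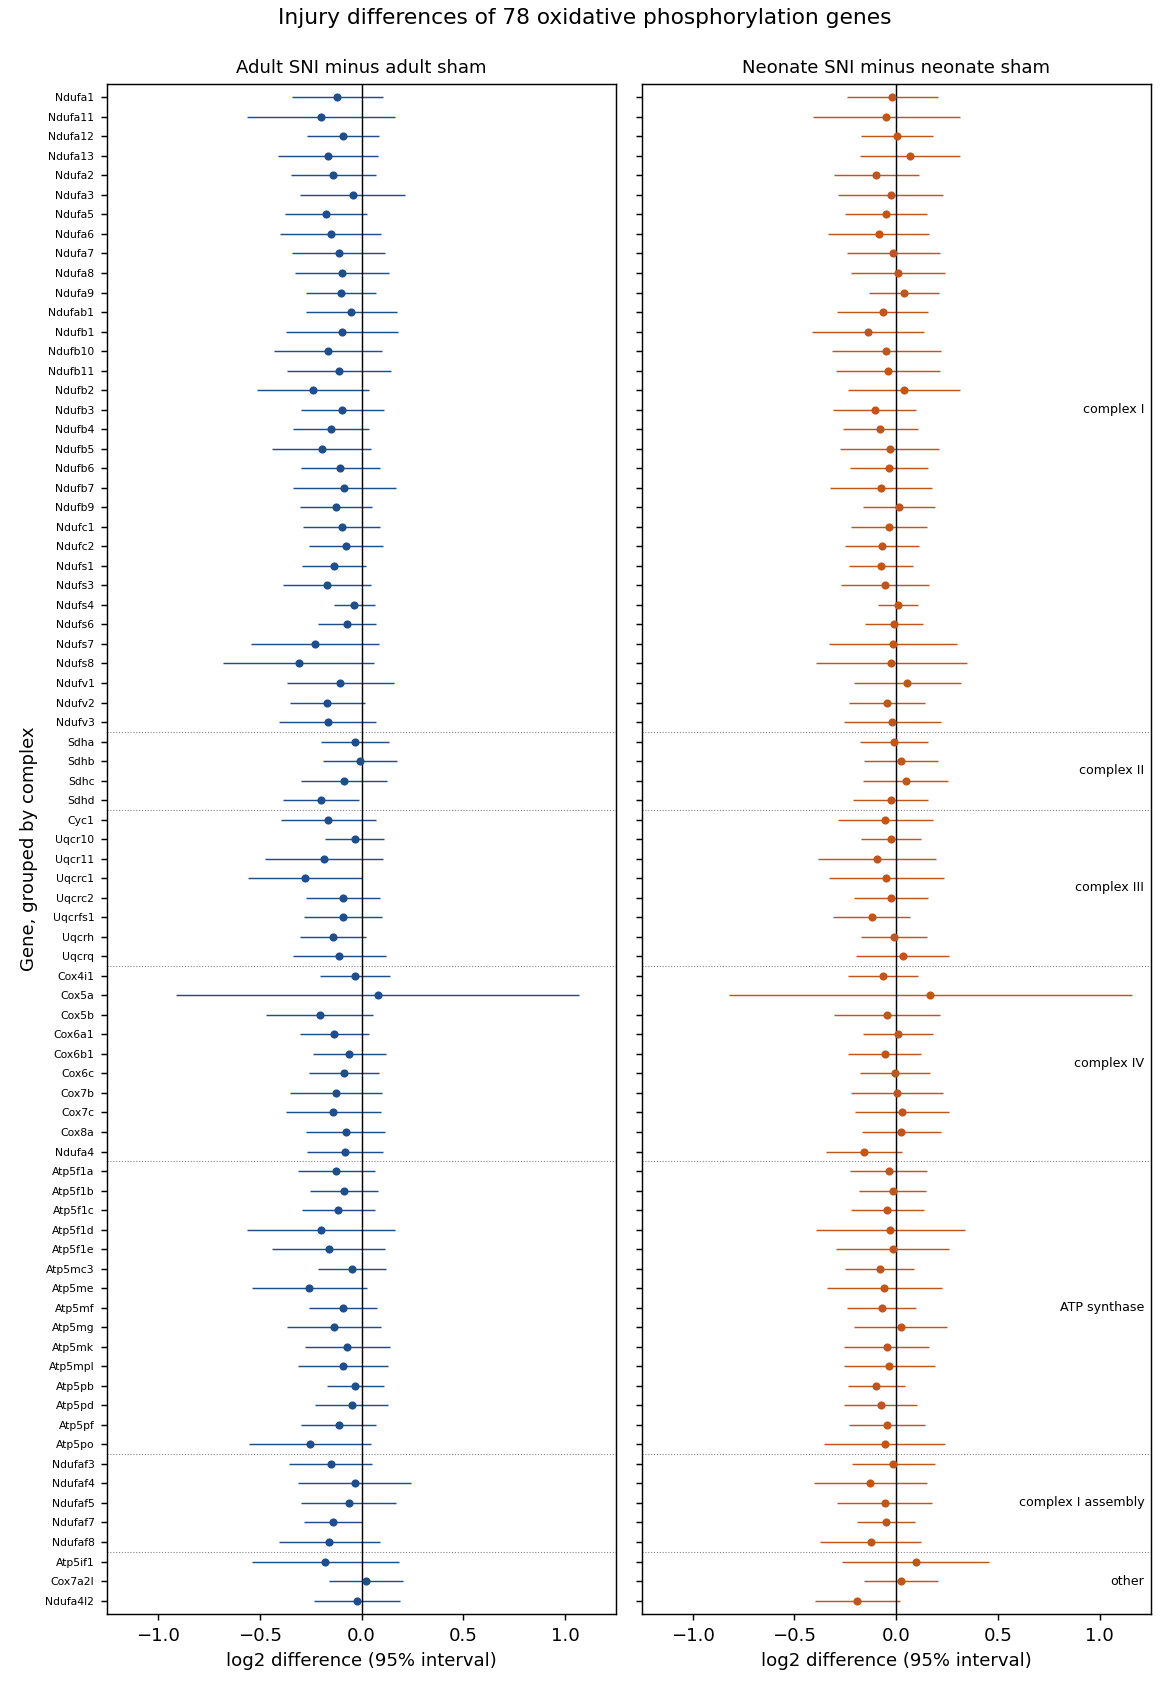
SNI minus sham difference (log2, horizontal axis) of each of the 78 genes, grouped by complex, in adults (left) and neonates (right). Points are fitted differences from 6 against 6 arrays and bars their 95% intervals. The adult points lie mostly just left of 0, with a median of -0.11, and the neonate points centre on -0.03.

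At an unadjusted p under 0.05 a single member passed in adults, against 7.75% of all genes. This was Sdhd, which encodes a membrane anchor of succinate dehydrogenase, the enzyme that forms complex II. Its values ran from 10.82 to 11.17 log2 with a median of 11.06 on the sham arrays, and from 10.62 to 11.01 with a median of 10.82 on the SNI arrays. The groups overlapped over much of their range. The difference was -0.20 log2 (SE 0.09, limma adjusted p = 0.549). A second Sdhd probe set gave -0.05 log2 (limma adjusted p = 0.977). With the mean of both probe sets the difference was -0.12 log2 and with weighted arrays -0.11.

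By complex, the adult differences below 0 numbered 33 of 33 for complex I, 4 of 4 for complex II, 8 of 8 for complex III, 9 of 10 for complex IV and 15 of 15 for the ATP synthase. The medians were -0.12, -0.06, -0.12, -0.09 and -0.11 log2. All 5 assembly factors of complex I also lay below 0, with a median of -0.14. The median standard error of a single gene was 0.10 log2.

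Ndufs8, a core subunit of complex I that carries iron-sulfur clusters, had the lowest difference. Its values ran from 8.88 to 9.65 log2 with a median of 9.31 in adult sham, and from 8.32 to 9.44 with a median of 9.11 in adult SNI. The arrays of both groups overlapped, and the difference of -0.31 log2 (SE 0.18) did not pass (limma adjusted p = 0.748). Without adult SNI array 3 it was -0.18. Uqcrc1, a core protein of complex III, followed with -0.28 log2 (SE 0.14, limma adjusted p = 0.647). Without the same array it was -0.18. Ndufs8 and Uqcrc1 are named because they had the lowest differences, which was seen in the values.

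The most brightly measured gene of each complex also stayed within the replicate spread in adults. Ndufb3, an accessory subunit of complex I, ran from 12.39 to 12.75 log2 with a median of 12.55 in adult sham and from 12.17 to 12.73 with a median of 12.45 in adult SNI, a difference of -0.09 (SE 0.10). Uqcr10, a small subunit of complex III, ran from 11.56 to 11.82 with a median of 11.68 and from 11.40 to 11.83 with a median of 11.66, a difference of -0.03 (SE 0.07), though 8 of its 24 arrays held 1 identical value. The SNI arrays of both genes covered nearly the whole range of the sham arrays. Cox8a, a small subunit of complex IV, ran from 13.67 to 14.18 log2 with a median of 13.80 in sham and from 13.51 to 13.93 with a median of 13.86 after SNI, a difference of -0.08 (SE 0.09). Atp5mc3, 1 of the genes of the membrane ring that turns as protons pass through the ATP synthase, ran from 13.20 to 13.51 with a median of 13.31 and from 13.10 to 13.50 with a median of 13.22, a difference of -0.05 (SE 0.08). Here too the groups overlapped widely. Sdhd, given above, was the brightest of complex II. None of the 4 others was called (limma adjusted p from 0.926 to 0.978).

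The intervals set a bound on what the injury could have done. For 76 of the 78 genes the 95% interval of the adult difference lay within 1.5-fold in either direction, which held for 87.1% of all genes tested. Ndufs4, a complex I subunit, and Ndufa4l2 held 1 identical deposited value on 18 and 14 of the 24 arrays, so that their intervals bound nothing. Without both the count was 74 of 76. Genes with fewer identical values, such as Ndufs6 with 9, stayed in that count. The tightest of these 76 was Atp5pb, a stalk subunit of the ATP synthase, at -0.03 log2 with an interval from -0.17 to 0.11. The widest was Cox5a, a subunit of complex IV, whose values ran from 5.03 to 8.16 log2 within adult sham alone. Its difference of 0.08 had an interval from -0.91 to 1.07 and bounds the change only loosely.

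The adult shift moved with single arrays. Averaged over the 78 genes, the adult sham arrays ran from 10.55 to 10.83 log2 (10.70 ± 0.108, SD, n = 6) and the adult SNI arrays from 10.39 to 10.75 (10.58 ± 0.139, SD, n = 6). The groups overlapped: adult SNI arrays 5 and 3 were the lowest of all 24, while adult SNI array 4 lay above the mean of the sham arrays. Without adult SNI array 5 the median difference was -0.07 log2, with 71 of 78 genes below 0. Over all arrays left out in turn the median ran from -0.15 to -0.07 and the count below 0 from 71 to 78.

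**Figure D2:**
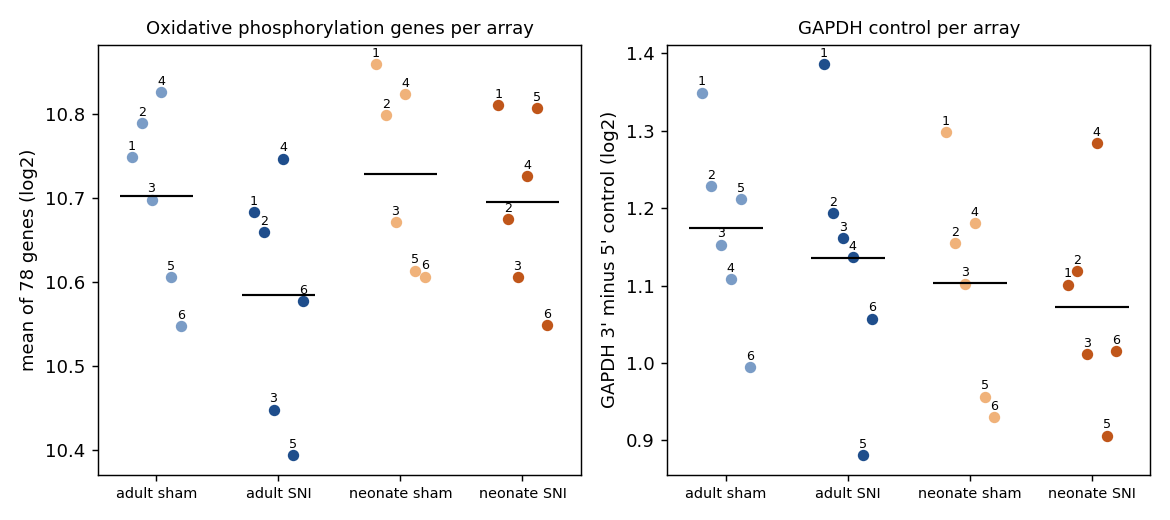
Left, mean of the 78 genes on each array (log2); right, difference between the 3' and 5' control probe sets of GAPDH on the same arrays (log2). Points are arrays with their replicate number, and lines are group means of 6 arrays. Adult SNI arrays 5 and 3 lie lowest on the left, at 10.39 and 10.45, and array 5 is also the lowest on the right, at 0.88.

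The control for RNA length moved with some of these arrays. The difference between the 3' and 5' control probe sets of GAPDH, which grows when RNA is broken, was 0.88 to 1.39 log2 on adult SNI arrays and 0.99 to 1.35 on adult sham arrays. Adult SNI array 5 had the lowest value of all arrays. With this control as a covariate the adult median was -0.10 log2 and 75 of 78 genes lay below 0. Markers of microglia, the immune cells of the spinal cord, ran from 7.43 to 7.64 log2 on the adult SNI arrays and from 5.72 to 6.17 on the sham arrays as a mean over 5 of 7 genes, with Cd68 and Itgam below the filter level. Markers of motor neurons, which lie ventral to the dorsal horn, ran from 6.25 to 8.79 and from 5.76 to 9.46 over 3 of 4 genes, with Isl1 below the filter level. Of 9 skeletal muscle markers 7, Acta1 and Ckm among them, lay below the filter level, and Tnnc2, a troponin of fast muscle, fell by 1.40 log2 after adult injury (limma adjusted p = 0.00874). Myh1, the other muscle marker above that level, differed by 0.07 log2 (limma adjusted p = 0.994). The mean of the 2 muscle markers above that level ran from 8.04 to 9.498 after SNI and from 8.95 to 9.96 in sham. Markers of neurons ran from 11.95 to 12.46 after SNI and from 12.03 to 12.65 in sham over 7 genes. The part of these markers in the shift was not tested.

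The second comparison asked the same of neonates. None of the 78 genes was called (limma), against 0.357% of all genes tested, and none had an unadjusted p under 0.05, against 2.63% of all genes. None separated the 6 SNI from the 6 sham arrays, against 0.514% of all genes. The differences lay below 0 for 59 of 78 genes, beside 53.9% of all genes, and ranged from -0.19 for Ndufa4l2 to 0.17 for Cox5a. The median was -0.03 log2, beside -0.01 over all genes, and moved from -0.064 (without neonate SNI array 5) to -0.0038 (without neonate SNI array 6). Left-out arrays moved the count below 0 from 42 to 68, the lowest without neonate SNI array 3. For 77 of 78 genes the 95% interval lay within 1.5-fold.

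Per complex the neonate counts below 0 were 25 of 33 for complex I, 2 of 4 for complex II, 7 of 8 for complex III, 5 of 10 for complex IV and 14 of 15 for the ATP synthase. Sdhd, the single adult gene with an unadjusted p under 0.05, differed by -0.03 log2 (SE 0.09) in neonates. Ndufs8 differed by -0.02 (SE 0.18) and Uqcr10 by -0.03 (SE 0.07). Averaged over the 78 genes, neonate sham arrays ran from 10.61 to 10.86 log2 and neonate SNI arrays from 10.55 to 10.81, so that both groups spanned nearly the same range.

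The difference between the ages was tested directly, as the adult injury effect minus the neonate one. None of the 78 genes was called (limma), against 0.257% of all genes tested, and none had an unadjusted p under 0.05, against 2.46% of all genes. The median was -0.09 log2, beside -0.02 over all genes, and 67 of 78 lay below 0, beside 55.1% of all genes. The intervals lay within 1.5-fold for 68 of the 78. The lowest value was that of Ndufs8, at -0.29 log2 (SE 0.25, limma adjusted p = 1). Left-out arrays moved the median from -0.12 to -0.05, nearest to 0 without adult SNI array 5. A smaller or larger injury effect in adults than in neonates was therefore not detectable for any single gene with these arrays.

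The third comparison set adults against neonates, once among the sham arrays and once among the SNI arrays, which share no array. Among sham arrays Uqcrfs1 and Atp5f1a were lower in adults and Ndufaf8 was higher (limma). That is 2 of 78 lower, against 8.59% of all genes tested, and 1 of 78 higher, against 7.86%. Among SNI arrays 12 of 78 were lower in adults, against 11.9% of all genes, and 0 were higher, against 9.66%. At an unadjusted p under 0.05 limma gave 16 lower and 2 higher in that comparison, 18 of 78 against 32.8% of all genes, and 13 of 78 in sham arrays, against 28.9%. The medians were -0.03 log2 in sham and -0.11 in SNI arrays, beside -0.03 and -0.05 over all genes. Leaving out 1 array moved the sham median from -0.073 (without neonate sham array 6) to -0.0054 (without neonate sham array 1), and the GAPDH covariate gave -0.075. The SNI median moved from -0.15 to -0.08. With each array centred on its own median, the sham median was 0.01 and the calls were 1 lower and 2 higher in sham, and 9 lower and 1 higher in SNI.

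**Figure D3:**
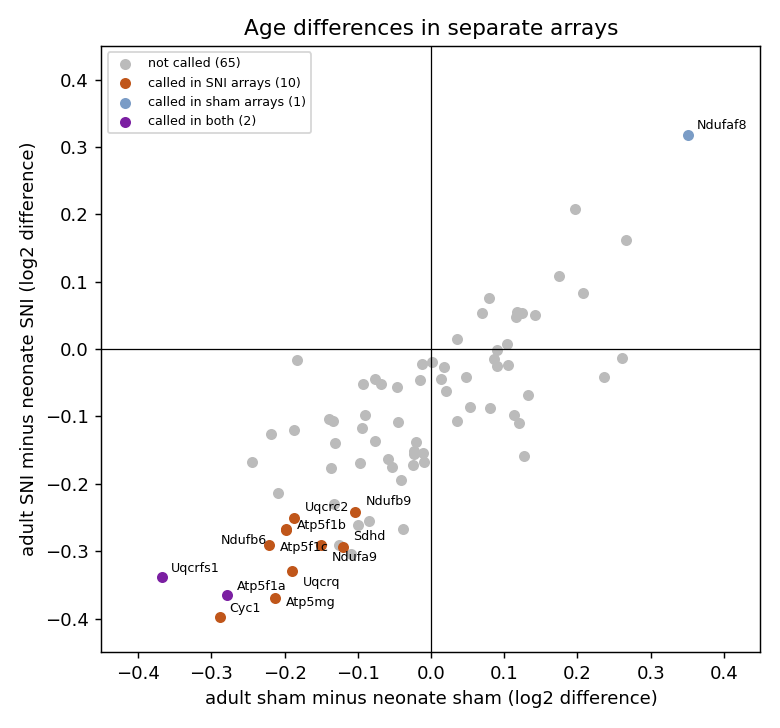
Adult minus neonate difference (log2) of each of the 78 genes in sham arrays (horizontal) and in SNI arrays (vertical). Each point is 1 gene, coloured by the comparison in which it passed limma's test. Uqcrfs1 and Atp5f1a passed in both, 10 genes in SNI arrays alone and Ndufaf8 in sham arrays alone.

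In complex III the genes of both catalytic subunits outside the mitochondrial genome were measured. Uqcrfs1 encodes the Rieske iron-sulfur protein, which takes electrons from ubiquinol. Its values ran from 11.39 to 11.64 log2 with a median of 11.54 in adult sham and from 11.58 to 12.09 with a median of 11.91 in neonate sham. In adult SNI they ran from 11.09 to 11.67 with a median of 11.46, and in neonate SNI from 11.64 to 11.84 with a median of 11.80. The adult arrays lay below most neonate arrays, with a narrow overlap in both comparisons. The adult minus neonate difference was -0.37 log2 in sham (SE 0.09, limma adjusted p = 0.00727) and -0.34 in SNI arrays (SE 0.09, limma adjusted p = 0.0105). The call held with each of the 12 arrays of either comparison left out.

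Cyc1 encodes cytochrome c1, which hands electrons on to cytochrome c. It ran from 10.55 to 10.72 log2 with a median of 10.64 in adult sham, and from 10.72 to 11.09 with a median of 10.94 in neonate sham. In adult SNI it ran from 10.001 to 10.82 with a median of 10.52, and in neonate SNI from 10.53 to 11.13 with a median of 10.85. The sham groups met at 10.72 without overlapping, whereas the SNI groups overlapped widely. The sham difference of -0.29 log2 (SE 0.11) missed the threshold (limma adjusted p = 0.0864), and the SNI difference of -0.40 (SE 0.11) passed (limma adjusted p = 0.0133), with each of 12 arrays left out as well. Fitted on the SNI arrays alone it did not pass (limma adjusted p = 0.0639). Cyc1 and Atp5pb were the 2 of 78 genes whose sham arrays did not overlap, against 8.65% of all genes. Neither was called in sham arrays.

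Uqcrq and Uqcrc2, a small subunit and a core protein of complex III, were the other members of that complex called in SNI arrays, at -0.33 and -0.25 log2. Uqcrq lost its call without adult SNI array 3 (-0.25 log2, limma adjusted p = 0.0988) and 4 other arrays, and Uqcrc2 without 7 of the 12. In all, 4 of 8 complex III genes were called lower in adult SNI than in neonate SNI, against 11.9% of all genes tested. Differences lay below 0 for 7 of the 8, and the median of the complex was -0.26 log2.

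In the ATP synthase, 3 of the 5 genes of the F1 head, the part that forms ATP, were called lower in adult SNI arrays. The share over all genes tested was 11.9%, and all 5 genes lay below 0. Atp5f1a encodes the alpha subunit of the head. Values ran from 13.002 to 13.29 log2 with a median of 13.11 in adult sham and from 13.26 to 13.57 with a median of 13.39 in neonate sham. They ran from 12.72 to 13.19 with a median of 13.04 in adult SNI and from 13.17 to 13.68 with a median of 13.35 in neonate SNI. A single adult array reached into the neonate range in each comparison. The difference was -0.28 log2 in sham (SE 0.09, limma adjusted p = 0.0406) and -0.37 in SNI arrays (SE 0.09, limma adjusted p = 0.00588). The SNI call held with each of 12 arrays left out, while the sham call was lost without any of 7 arrays (adult sham 1, 4, 5 or 6, neonate sham 1, 2 or 4), with adjusted p up to 0.0927.

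Atp5f1b, the catalytic beta subunit, ran from 12.83 to 13.16 log2 with a median of 13.10 in adult SNI and from 13.22 to 13.38 with a median of 13.30 in neonate SNI. These groups did not overlap, and the difference was -0.27 log2 (SE 0.08, limma adjusted p = 0.0199). Atp5f1c, the gamma subunit that turns inside the head, ran from 11.04 to 11.52 log2 with a median of 11.31 in adult SNI and from 11.32 to 11.76 with a median of 11.55 in neonate SNI. The groups overlapped, and the difference was -0.29 log2 (SE 0.09, limma adjusted p = 0.0183). Without adult SNI array 5 these became -0.23 and -0.24 with adjusted p of 0.053 and 0.052, and Atp5f1b was also lost without adult SNI array 3. Atp5mg, a subunit of the membrane part, ran from 11.31 to 11.92 log2 with a median of 11.79 in adult SNI and from 11.75 to 12.22 with a median of 12.13 in neonate SNI. It differed by -0.37 log2 (SE 0.11, limma adjusted p = 0.019) and lost its call without adult SNI array 3 (-0.29 log2, adjusted p = 0.0553). Atp5f1b and Ndufb9 were the 2 of 78 genes whose SNI arrays did not overlap between the ages, against 9.11% of all genes.

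**Figure D4:**
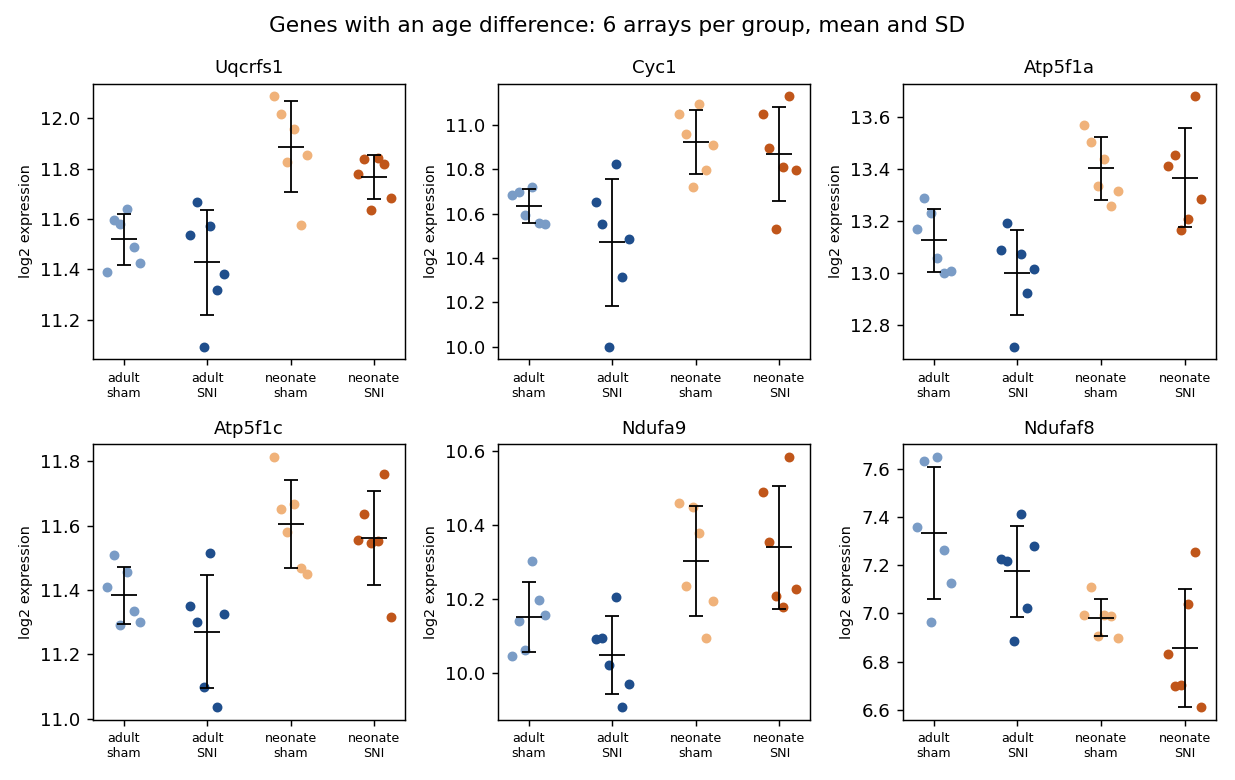
Values of 6 genes (log2, vertical axes starting above 0) on each of the 24 arrays. Points are arrays, and bars are the group mean and SD (n = 6). Uqcrfs1, Cyc1, Atp5f1a, Atp5f1c and Ndufa9 lie lower in both adult groups and Ndufaf8 lies higher, with overlap between single arrays in most pairs of groups.

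In complex I, Ndufa9, Ndufb6 and Ndufb9, all accessory subunits, were called lower in adult SNI arrays. That is 3 of 33 genes, against 11.9% of all genes tested. Ndufa9, which sits beside the ubiquinone site, ran from 9.91 to 10.21 log2 with a median of 10.06 in adult SNI and from 10.18 to 10.58 with a median of 10.29 in neonate SNI. A single adult array lay inside the neonate range. The difference was -0.29 log2 (SE 0.08, limma adjusted p = 0.0141), and it held with each of 12 arrays left out. Among sham arrays it was -0.15 (SE 0.08, limma adjusted p = 0.239). Ndufb6 and Ndufb9 were lower, at -0.27 and -0.24 log2, and lost their calls without 6 and 10 of the 12 arrays.

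Ndufaf8, an assembly factor of complex I, differed in the other direction. It ran from 6.97 to 7.65 log2 with a median of 7.31 in adult sham and from 6.90 to 7.11 with a median of 6.99 in neonate sham. In adult SNI it ran from 6.89 to 7.41 with a median of 7.22, and in neonate SNI from 6.61 to 7.25 with a median of 6.77. Most adult arrays were above the neonate ones, with overlap in both comparisons. The difference was 0.35 log2 in sham (SE 0.12, limma adjusted p = 0.0471) and 0.32 in SNI arrays (SE 0.12, limma adjusted p = 0.0614). The sham call was lost with 10 of the 12 arrays left out, with adjusted p up to 0.125.

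Sdhd was the only called gene of complex II, at -0.29 log2 in the SNI arrays (SE 0.09, limma adjusted p = 0.0214) and not past the threshold without adult SNI array 1 or 3 or neonate SNI array 5. Its second probe set gave -0.20 log2 and was not called (limma adjusted p = 0.137). In complex IV 0 of 10 genes was called in either comparison (limma). At an unadjusted p under 0.05 were 2 genes in sham and 1 in SNI arrays, all lower in adults, against 28.9% and 32.8% of all genes. In all, the SNI count of 12 fell to 6 without adult SNI array 3 or 5. The sham count of 3 rose to 5 without adult sham array 3 and fell to 1 without adult sham array 4 or 5 or neonate sham array 1, 2 or 4.

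Set side by side, the age differences in sham and in SNI arrays had the same sign for 60 of 78 genes, 76.9%, beside 81.8% of all genes tested. Across the 78 genes they correlated at r = 0.81, beside 0.859 over all genes, a description over genes that share arrays. Uqcrfs1 and Atp5f1a were called in both and 13 genes in either. An average over both comparisons, 12 adult against 12 neonate arrays, was added after the values had been seen and called 15 of 78 lower, against 19.8% of all genes, and 3 higher, against 14.9%. It gave 24 of 78 at an unadjusted p under 0.05, against 43.6% of all genes. The 3 higher were Ndufaf8 (0.33 log2), Ndufa8 (0.21) and Ndufb3 (0.20), and the 15 lower were the 12 named genes with Cox6b1 (-0.21), Ndufa4 (-0.21) and Atp5pb (-0.15). The members' shares of calls were thus at or under the background in each age comparison but for the lower calls among SNI arrays, which were slightly above it.

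Markers of other cells also differed with age. Mag and Cnp of myelin-forming oligodendrocytes were lower in adult sham than in neonate sham, at -0.51 and -0.43 log2, with the mean over 6 of 6 markers at 12.66 to 12.97 against 12.84 to 13.16. The red blood cell markers Hbb, Alas2 and Slc4a1 were higher, 3 of 3, with a mean of 9.31 to 10.54 against 7.33 to 7.89. Of 9 muscle markers on the array 2 were above the filter level, Tnnc2 and Myh1. Only Tnnc2 was called, higher in adult sham by 2.82 log2. The mean of both was 8.95 to 9.96 against 7.18 to 8.83. Among SNI arrays the adult and neonate means were 12.68 to 12.95 against 12.85 to 13.22 for oligodendrocytes, 9.23 to 9.96 against 7.25 to 9.24 for red blood cells, 8.04 to 9.498 against 6.53 to 8.39 for muscle and 7.43 to 7.64 against 6.13 to 6.97 for microglia. Of 7 neuronal markers 2 lay below 0 in adult against neonate sham arrays, with a median of 0.06 log2, and Stmn2, at -0.41, was the only one called. Of 7 astrocyte markers S100b (0.85) and Gfap (0.36) were higher and Slc1a3 (-0.34) lower in adult sham. Of 4 endothelial markers 3 were above the filter level, with Pecam1 below it. Slco1a4 (1.76) and Flt1 (0.42) were higher, while Cldn5 lay below 0 without a call. Among SNI arrays Cldn5 was called lower in adults (-0.42, limma adjusted p = 0.0363). Of 7 microglial markers 5 were above the filter level, with Cd68 and Itgam below it. Tyrobp (0.86) and Csf1r (0.52) were called higher in adult sham, and 1 of the 5 lay below 0. The part of these markers in the age differences was not tested.

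Isoform pairs were read within each gene only, since levels of different probe sets cannot be compared. Cox4i1, the ubiquitous form of a regulatory subunit of complex IV, ran from 12.79 to 13.06 log2 with a median of 12.96 in adult sham and from 12.69 to 13.18 with a median of 12.89 in adult SNI. The groups overlapped, and it differed by -0.03 log2 (SE 0.08) after adult injury. Its partner Cox4i2, known from lung, was above the filter level on 0 arrays, as were Cox6a2 and Cox8b, forms known from heart and skeletal muscle. Cox7a1, another muscle form, was above it on 4 arrays. Cox6a1, the form found outside muscle, ran from 11.98 to 12.37 log2 in adult sham and from 11.78 to 12.22 in adult SNI. It differed by -0.13 log2 (SE 0.08) in adults and by 0.01 (SE 0.08) in neonates. Ndufa4 ran from 11.83 to 12.22 log2 in adult sham and from 11.73 to 12.10 in adult SNI, and from 12.11 to 12.43 in neonate sham and from 11.91 to 12.36 in neonate SNI. Its injury differences were -0.08 (SE 0.09) in adults and -0.16 (SE 0.09) in neonates, and neither was called. Its relative Ndufa4l2, known as a gene of low oxygen, lay between 4.52 and 4.53 log2 on all adult SNI arrays and reached 5.37 on 1 neonate sham array, so that most of its values sit at one low level.

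Part of the spread among arrays of a group was shared by the genes. The mean over the 78 genes on an array held 30.3% of their variation within groups. The same measure over all 7006 genes was 1.97%, but normalization across arrays keeps that mean nearly level. It therefore cannot tell whether other sets of 78 genes share less. The median residual SD of a gene was 0.171 log2, beside 0.211 over all genes, and reached 0.90 for Cox5a. The lowest, 0.032 for Ndufs4, reflects its 18 identical values, and the next was 0.097 for Atp5pb. On adult SNI array 5, 72 of 78 genes lay below their group mean, as did 72 on adult sham array 6, 69 on neonate sham array 5 and 69 on neonate SNI array 6. Adult SNI array 4 was the opposite, with 7 of 78 below.

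**Figure D5:**
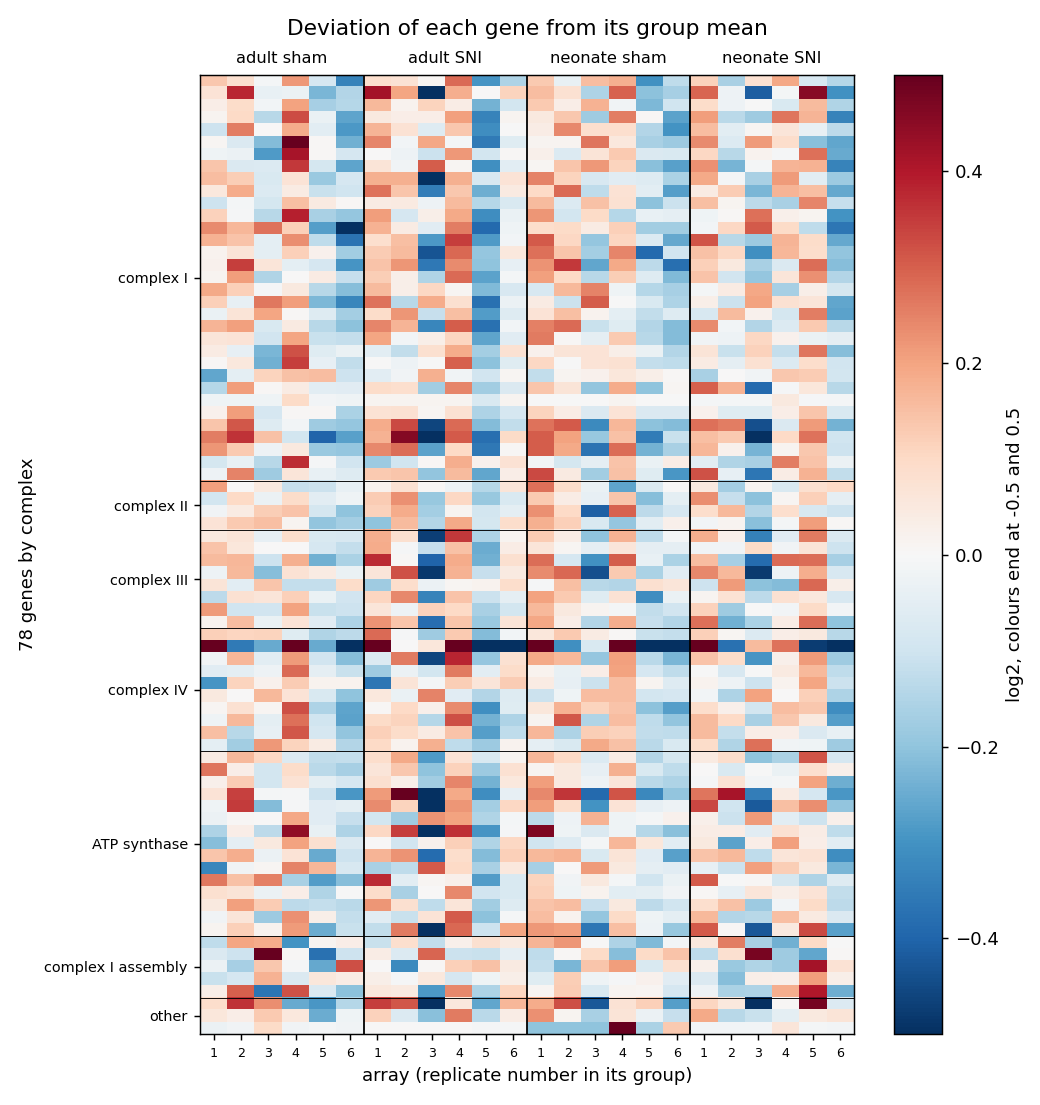
Deviation of each of the 78 genes (rows, by complex) from its mean in the group, on each of the 24 arrays (columns, by group and replicate number), as log2 in colour. Whole columns are blue or red, such as adult SNI array 5 with 72 of 78 genes below the mean, and the arrays numbered 3 in 3 groups show the same dark blue rows.

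A smaller set of genes stood out on the arrays numbered 3. Atp5f1d, Atp5if1, Atp5po, Ndufs7, Uqcr11 and Uqcrc1 lay more than 0.3 log2 below their group mean on array 3 of adult SNI, of neonate sham and of neonate SNI alike. These are 6 of 78, 7.69%, beside 4.45% of all genes tested. Atp5if1, the inhibitor of the ATP synthase, deviated by -0.62, -0.42 and -0.57 log2 on these arrays, and by 0.23 on adult sham array 3. The pattern was noticed in the values. What the replicate numbers stand for is not stated in the labels.

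The rest of mitochondrial metabolism was read from lists of related genes. After adult injury 0 of 15 genes of the citric acid cycle, 0 of 14 of glycolysis, 0 of 24 further assembly factors, 0 of 71 of the mitochondrial ribosome, 0 of 23 of protein import, 0 of 5 regulators of mitochondrial biogenesis and 0 of 9 antioxidant enzymes were called (limma), against 2.01% of all genes. At an unadjusted p under 0.05 these lists held 1 of 24 assembly factors and 3 of 71 ribosomal genes, against 7.75% of all genes. Differences lay below 0 for 12 of 15, 11 of 14, 18 of 24, 56 of 71, 20 of 23, 2 of 5 and 5 of 9 genes in that order, beside 60.7% of all genes. The medians ran from -0.09 log2 for the citric acid cycle and the assembly factors to 0.02 for the biogenesis regulators. Among 11 carriers and porins 1 was called, Ucp2, which rose by 1.03 log2 (SE 0.20, limma adjusted p = 0.00207). Differences lay below 0 for 10 of these 11, with a median of -0.05 log2, and 2 had an unadjusted p under 0.05. Ucp2 encodes a carrier of the inner membrane known from immune cells as well as neurons. None of these lists had a called gene in neonates (limma), against 0.357% of all genes tested. There 1 assembly factor had an unadjusted p under 0.05, against 2.63% of all genes.

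Between the ages some genes of these lists were called, where the background over all genes was 7.86% higher and 8.59% lower in adult sham, and 9.66% and 11.9% among SNI arrays. Ldha, the lactate dehydrogenase subunit that favours lactate formation, was lower in adults, at -0.76 log2 in sham and -0.58 in SNI arrays (SE 0.11, limma adjusted p = 1.84e-05 and 0.00033). Among 24 further assembly factors, 3 were called higher in adult sham, above that share, and 1 was called lower, under it. Among SNI arrays 3 were called higher and 2 lower, with Cox14 at -0.44 log2 (limma adjusted p = 0.0091) called there alone. The median of the 24 was 0.01 log2 in sham and -0.07 in SNI arrays. Atpaf1, which helps to build the F1 head, was higher by 0.59 and 0.55 log2 in sham and SNI arrays, and Cox19 and Cox17, which serve copper delivery to complex IV, by 0.55 and 0.46 and by 0.37 and 0.33. Ttc19, needed for complex III, was lower, at -0.41 and -0.47. In the mitochondrial ribosome 3 of 71 genes were lower and 1 higher in sham arrays, led by Mrpl41 at -0.41 log2, and 5 were lower and 1 higher in SNI arrays, in each case under the background share. Tomm34, a helper of protein import, was higher by 0.63 and 0.70. Gabpb1, a subunit of the GA-binding protein that recognises the ETS motif, was lower, at -0.34 log2 in sham arrays (limma adjusted p = 0.0372). It was the 1 called of 5 biogenesis regulators there, and 0 of these 5 was called in SNI arrays. In SNI arrays Pc, pyruvate carboxylase, was higher by 0.52, and Pdhb, a subunit of pyruvate dehydrogenase, was lower, at -0.40.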

How the data were processed

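Values per probe set were deposited by the authors on the log2 scale, made with GCRMA (background correction by probe sequence, normalization across arrays, 1 value per probe set) from Affymetrix Rat Expression 230A arrays, per the submitters' processing notes and the labels. Which version of GCRMA was run is not recorded there. Some probe sets hold 1 identical value on many arrays, where a small difference or spread carries little information. The values were used as deposited.

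Of 15923 probe sets, 57 were controls, 12783 had 1 symbol, 312 several and 2771 none in the platform annotation, which can be old. The members had 90 probe sets with 1 symbol, and 9 probe sets with several symbols that include a member are not named. A linear model with a mean for each of 4 groups was fitted to all 24 arrays in limma 3.58.1 (R 4.3.3, data.table version 1.17.8), with 20 residual and 3.81 prior degrees of freedom. Probe sets above 3.84 log2, the 40th percentile of all values, on at least 6 arrays were tested (9638 probe sets), two-sided, with Benjamini-Hochberg adjustment over all of them and a threshold of 0.05. Background shares are over 7006 genes with 1 probe set each. The procedure was tested on simulated data. Alternatives were no filter, a filter at the 60th percentile, centred arrays, the mean of a gene's probe sets, other variance models, array weights, a fit of the compared groups alone, a replicate block, and each array left out; the GAPDH covariate, a block across ages and the averaged age difference were added after the values had been seen.

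Values over arrays are given for up to 6 called members with the smallest p in each comparison, the brightest of each complex and isoform pairs. For called genes of the related lists only differences are given, and not for every called gene. Other genes named were chosen after their values were seen. The members and lists were chosen with earlier results of these data known. Deviations of same-numbered sham and SNI arrays within an age correlated at 0.10 to 0.61, where the lowest sits at the limit of 0.1, and were taken as paired for the block, though the meaning of a number is not given in the labels. Across ages the lowest correlation was 0.0141 and arrays were not taken as paired. Promoters came from RefSeq (GRCr8), the first listed start of each gene, 250 bases before to 50 after it; 9 members had no entry there. Plots used matplotlib 3.10.9 (Python 3.11.15).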

Additional observations from a re-analysis of the deposited data

Results flagged for a closer look

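Of 68 groups of 6 arrays of the genes whose values were described by the naming rule, 3 held an array far from the other 5, while chance gives about 1 in 20. Cox6a1 was at 12.37 log2 on adult sham array 4, with the other 5 between 11.98 and 12.06. Ndufa4l2 was at 4.65 log2 on adult sham array 3, with the others between 4.52 and 4.54, and at 4.61 on neonate SNI array 4, with the others at 4.53.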

How the results depend on the processing

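The counts of 0 called genes in adult injury, neonate injury and their difference stayed at 0 under every alternative run, and no median difference moved by more than the spread of the array means. With the replicate block within an age, 0 genes were called in each of these 3 comparisons, as without it. No called difference of a gene picked by the naming rule changed sign. Under the alternatives 1829 values of these genes, called or not, stayed on the same side of the threshold, 23 newly passed and 31 no longer passed. Atp5f1b, Ndufb6, Ndufb9, Uqcrc2 and Uqcrq are outside that count. Their SNI calls held in 10, 6, 2, 5 and 7 of the 12 fits with 1 array left out. For adult against neonate sham arrays, 3 genes were called, 10 with array weights, 5 with the GAPDH covariate, 8 with a replicate block shared across the 4 groups, 18 with sham and SNI averaged, and 1 to 5 with an array left out. For adult against neonate SNI arrays, 12 were called, 5 in a fit of those groups alone, 20 with the shared replicate block, and 6 to 11 with an array left out. The cause of these changes was not tested. Whether the numbers pair arrays across ages is not stated, and same-numbered arrays of different ages correlated in their deviations at 0.0141 to 0.644. The replicate block within an age cannot be used for a comparison of ages and was not run there. Groups of 6 arrays leave a median standard error of 0.10 log2 per gene, and 7 members below the filter level have no usable difference.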
